A study of Mus musculus with 2 samples.

Results

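Naip5, Tlr6, Il1r2 and Ncf1 are 4 innate immunity genes whose RNA was lower in mast cells lacking Tet2 than in WT mast cells. They were taken by gene symbol from a table of 8139 symbols, of which 3741 are annotated as protein-coding, and all 4 symbols were found. They were selected on the RPKM values of these same libraries, as genes far lower in Tet2-/- than in WT, so the values are a description and carry no test.

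Mast cells were grown from the bone marrow of Tet2-/- and wild type (WT) C57BL/6 mice, and 1 RNA sequencing library was made for each genotype. Mast cells, which reside in tissues and act early against microbes and in allergy, are recognised by the IgE receptor FcɛRI and by c-Kit, the receptor for stem cell factor. Both cultures were grown from femoral marrow for 4 to 6 weeks in medium with 10% serum, interleukin-3 at 10 ng/ml and stem cell factor at 5 ng/ml. Cells were used when more than 97.5% of them stained for both receptors. The labels do not say how the Tet2 allele was disrupted, how old the mice were or how many mice stood behind each culture. Tet2 itself, whose protein turns 5-methylcytosine of DNA into its oxidised forms, was not analysed here, so expression of the targeted gene gives no check of the labels.

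Values are RPKM, a read count corrected for gene length and for the number of reads that mapped. A single library stands for each genotype, so nothing here was replicated and p-values are not given. The spacing of the low values implied 32000000 fragments in the Tet2-/- library and 31100000 in the WT library. From these, each level has a 95% exact Poisson interval and each fold a 95% exact Clopper-Pearson interval, printed in brackets. Both describe the error of counting fragments, and differences among cultures or mice are outside them. In a bulk library, fewer cells of a type and less RNA per cell cannot be told apart. Of 19 mast cell marker genes, 4 were listed, and they summed to 2954 RPKM in Tet2-/- and 2968 RPKM in WT. Gzmb, a granzyme gene, was at 1994 RPKM in Tet2-/- and 1770 RPKM in WT, whereas the IgE receptor gamma chain gene Fcer1g was at 438 RPKM in Tet2-/- and 594 RPKM in WT, Slc18a2 at 491 RPKM in Tet2-/- and 572 RPKM in WT, and Mitf at 30.9 RPKM in Tet2-/- and 31.3 RPKM in WT. Kit, Fcer1a and Ms4a2, which define the cell type, were not analysed here.

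The 4 genes act at separate steps of innate defence. Naip5 encodes a cytosolic sensor of bacterial flagellin that joins Nlrc4 to form an inflammasome, a platform that activates caspase-1 and the release of mature interleukin-1 beta. Tlr6 encodes a surface receptor that pairs with Tlr2 to bind bacterial diacylated lipopeptides and signals through the adaptor Myd88. Il1r2 encodes a decoy receptor that binds interleukin-1 and passes on no signal, because it lacks the cytoplasmic signalling domain of Il1r1. Ncf1 encodes the organiser subunit of the phagocyte NADPH oxidase, an enzyme that makes superoxide and whose subunits include Ncf4 and the membrane proteins Cyba and Cybb.

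The annotated positions are in mouse build mm10. Naip5 (ENSMUSG00000071203.6) spans chromosome 13, 100211739 to 100246323, on the minus strand, with 14 exons. Tlr6 (ENSMUSG00000051498.6) spans chromosome 5, 64952031 to 64960097, on the minus strand, with 2 exons. Il1r2 (ENSMUSG00000026073.13) spans chromosome 1, 40074079 to 40125231, on the plus strand, with 9 exons. Ncf1 (ENSMUSG00000015950.13) spans chromosome 5, 134220053 to 134229625, on the minus strand, with 3 coding transcripts of 10 or 11 exons. Both genes on chromosome 5 lie far from each other.

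Tet2 acts on methylated CpG. Bases upstream of the RefSeq start sites of the 4 genes are shown, with CpG dinucleotides in capitals. DNA methylation was not measured in these libraries. The windows are from build GRCm38.p6, are written 5′ to 3′ on the strand of the gene, and leave out bases that an annotated exon of the same gene covers.
Naip5, chr13:100247337-100247586, minus strand: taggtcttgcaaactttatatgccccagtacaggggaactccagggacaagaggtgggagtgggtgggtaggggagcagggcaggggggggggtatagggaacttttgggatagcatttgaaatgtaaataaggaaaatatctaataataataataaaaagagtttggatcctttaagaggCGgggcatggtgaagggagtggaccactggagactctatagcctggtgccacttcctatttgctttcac
Tlr6, chr5:64960098-64960298, minus strand: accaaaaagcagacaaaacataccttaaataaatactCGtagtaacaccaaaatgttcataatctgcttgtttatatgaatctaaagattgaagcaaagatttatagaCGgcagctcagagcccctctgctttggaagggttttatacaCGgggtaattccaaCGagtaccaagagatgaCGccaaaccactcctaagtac
Il1r2, chr1:40085843-40085984, plus strand: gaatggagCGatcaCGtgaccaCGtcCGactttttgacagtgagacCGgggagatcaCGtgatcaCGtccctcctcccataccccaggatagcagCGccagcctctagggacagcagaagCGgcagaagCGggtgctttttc
Ncf1, chr5:134229626-134229875, minus strand: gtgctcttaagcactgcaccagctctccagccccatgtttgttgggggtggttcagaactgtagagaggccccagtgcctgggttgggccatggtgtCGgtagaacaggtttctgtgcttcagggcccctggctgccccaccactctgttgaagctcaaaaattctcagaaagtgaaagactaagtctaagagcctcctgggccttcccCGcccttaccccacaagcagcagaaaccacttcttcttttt

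The CpG count differed among the 4 windows, and its bearing on the RNA levels was not tested. Over the full 250 bases upstream, Naip5 had 1 CpG, Ncf1 had 2, Tlr6 had 6 and Il1r2 had 14, against a median of 6 (quartiles 2 and 16) over 32851 upstream windows of the same length. The share of G and C was 47.2% for Naip5, 54.4% for Ncf1, 40.4% for Tlr6 and 51.2% for Il1r2, against a median of 52.4%. The motif TATAAA, searched on both strands, was present once in the Naip5 window and 3 times in the Tlr6 window and was absent from the windows of Il1r2 and Ncf1, and 12.4% of all windows hold it. The letters GGAA or their complement TTCC, the core bound by ETS family factors, occurred 4 times for Naip5, 3 times each for Tlr6 and Il1r2 and once for Ncf1, and 93.4% of all windows hold at least 1. All these counts are over the full 250 bases, including exon bases not shown. The shorter stretches printed for Tlr6 and Il1r2 lack the bases nearest the start site and hold fewer GGAA or TTCC. Tlr6 has another RefSeq start site inside the gene, which is not shown. The RefSeq start of Il1r2 lies 12014 bases inside the annotated gene, so its window is that of an internal start, and that of Naip5 lies 1013 bases upstream of the annotated gene, so its window does not adjoin the gene positions given above. Which start was used in these cells cannot be told from a value per gene.

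Naip5, the flagellin sensor, was at 0.292 RPKM (0.215 to 0.388) in Tet2-/- and 10.1 RPKM (9.58 to 10.6) in WT. These levels rest on about 47 fragments in Tet2-/- and 1576 in WT. The gene was 34.5-fold lower in Tet2-/- (25.8 to 47.1). On the log2(RPKM + 1) scale its fold was -3.10, the lowest of the 1774 protein-coding genes that averaged 1 RPKM or more. The gene was chosen on these values, and its rank depends on the scale. By RPKM ratio Naip5 ranked 3 from the lowest. With 5 added in place of 1, the log2 fold of Naip5 was -1.51, against -1.91 for Ncf1. Naip5 stood above 47.7% of the listed protein-coding genes in Tet2-/- and above 68.7% in WT.

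Tlr6, the lipopeptide receptor, was at 0.277 RPKM (0.188 to 0.393) in Tet2-/- and 4.30 RPKM (3.92 to 4.70) in WT, on about 31 fragments in Tet2-/- and 469 in WT. It was 15.5-fold lower in Tet2-/- (10.8 to 23.1), with a log2(RPKM + 1) fold of -2.05. Il1r2, the decoy receptor, was at 0.0504 RPKM (0.00611 to 0.182) in Tet2-/- and 3.01 RPKM (2.49 to 3.61) in WT. The Tet2-/- value rests on about 2 fragments, against 117 in WT. Its ratio was therefore the least precise of the 4 genes, 59.7-fold lower in Tet2-/- with an interval of 16.2 to 498, and its log2(RPKM + 1) fold of -1.93 understates the change of so low a gene.

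Ncf1, the oxidase organiser, was at 10.8 RPKM (10.1 to 11.5) in Tet2-/- and 54.2 RPKM (52.6 to 55.9) in WT. It was 5.04-fold lower in Tet2-/- (4.69 to 5.43), with a log2(RPKM + 1) fold of -2.23, on about 875 fragments in Tet2-/- and 4303 in WT. Ncf1 was the one of the 4 above 1 RPKM in Tet2-/-. It stood above 69.3% of the listed protein-coding genes in Tet2-/- and above 92.0% of them in WT. These percentages, like those of Naip5, count all listed genes, including those with hardly any reads. Among protein-coding genes averaging 1 RPKM or more, the Tet2-/- median was 17.1 RPKM, above the level of Ncf1. The other 3 stood below 0.3 RPKM in Tet2-/-.

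**Figure D1:**
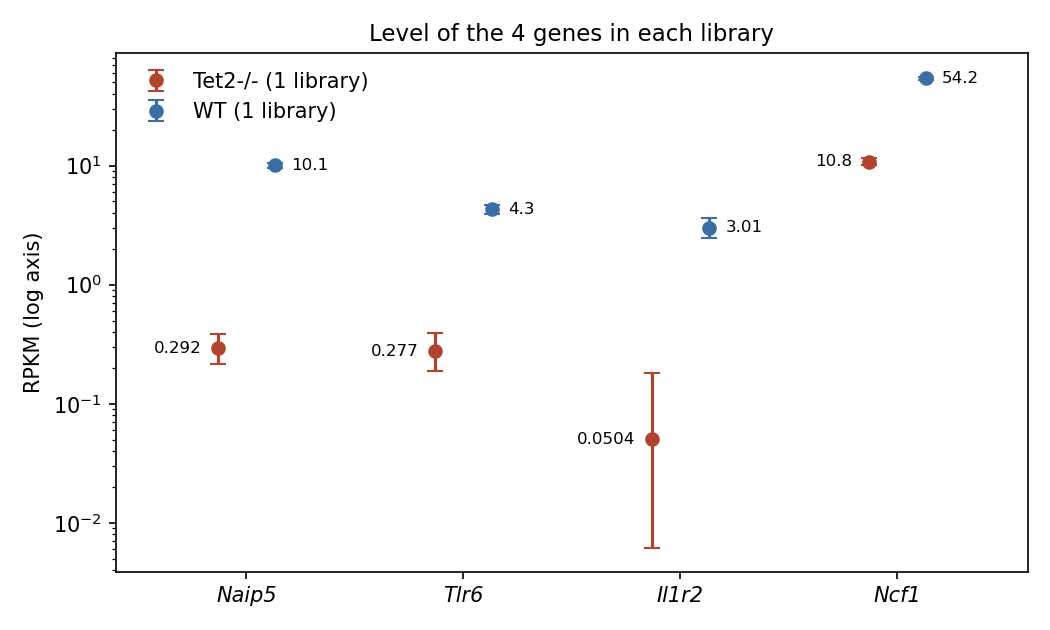
RPKM of Naip5, Tlr6, Il1r2 and Ncf1 in the Tet2-/- library (red, left) and the WT library (blue, right) on a log axis, with 95% exact Poisson intervals that cover counting error only. The intervals of the 2 libraries do not overlap for any of the 4 genes, which the choice of genes far lower in Tet2-/- fixed. The widest is that of Il1r2 in Tet2-/-, from 0.00611 to 0.182 RPKM.

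RPKM is per length, so the levels of the 4 genes can be ordered within a library. In Tet2-/- the order was Ncf1, Naip5, Tlr6 and Il1r2, and the intervals of Naip5 and Tlr6 overlapped, so these neighbours did not differ beyond counting error. The upper limit for Il1r2, 0.182 RPKM, lay just under the lower limit for Tlr6, 0.188 RPKM. In WT the order was the same and no intervals overlapped.

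A log2(RPKM + 1) fold of at least 1 in size, in a gene model averaging 1 RPKM or more, was counted as higher or lower in place of a test. By this rule 34 of 2107 gene models (1.61%) were lower in Tet2-/- and 61 (2.9%) were higher, and among the 1774 protein-coding genes 16 (0.902%) were lower and 30 (1.69%) higher. All 4 genes passed the filter and counted as lower, which the choice of genes fixed. Naip5, Tlr6 and Il1r2 passed the filter only through their WT level. With a pseudocount of 5, the folds of Tlr6 (-0.82) and Il1r2 (-0.67) no longer reached 2-fold. The protein-coding genes just inside the bound were Vcan at a log2 fold of -1.07 and Il2ra at -1.24, and those just outside were Peg12 at -0.996 and Atp8b5 at -0.97.

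**Figure D2:**
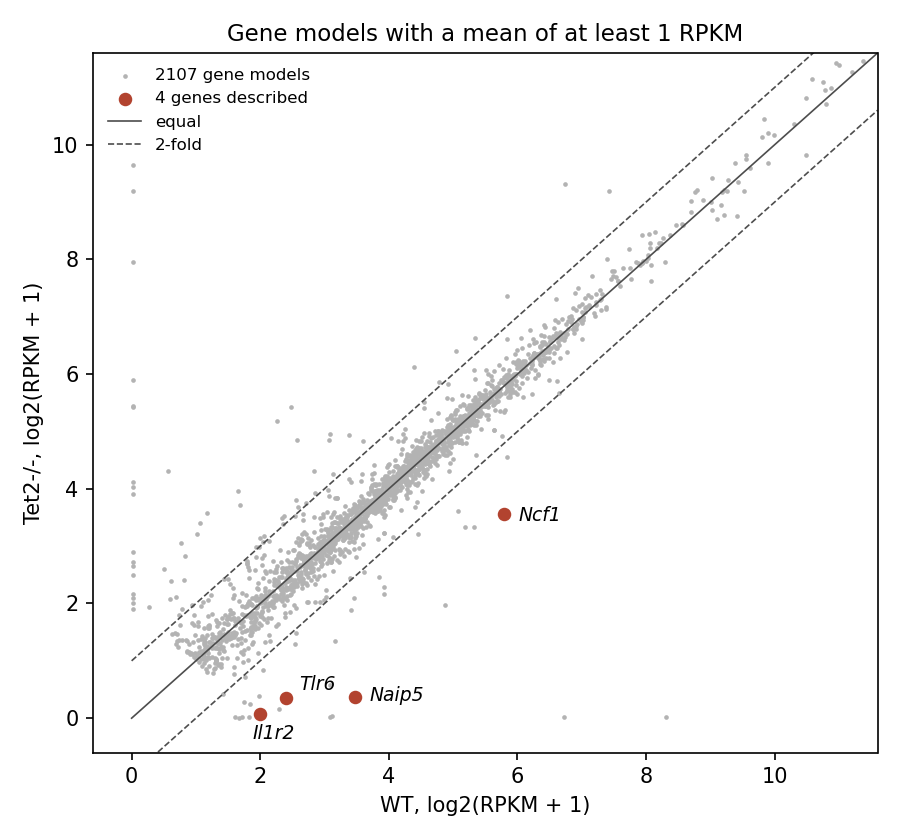
Level of the 2107 gene models averaging 1 RPKM or more, in Tet2-/- (vertical axis) and WT (horizontal axis), both as log2(RPKM + 1), with lines for equal levels and for 2-fold differences. Tlr6, Il1r2 and Naip5 lie near 0 on the Tet2-/- axis, while Ncf1, at 10.8 RPKM, lies below the 2-fold line at a higher level.

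The genes most like each of the 4 were sought by the distance between points of log2(RPKM + 1) over the 2 libraries, among protein-coding genes. With 2 libraries this likeness says no more than a similar pair of levels. Nearest to Naip5 were the predicted gene Gm2004 (0.498 RPKM in Tet2-/- and 7.50 RPKM in WT, distance 0.44), the phospholipid flippase gene Atp9a (0.0286 RPKM in Tet2-/- and 7.68 RPKM in WT, distance 0.48) and Tlr6 (distance 1.06). Tspan8, which encodes a tetraspanin, at 0.312 RPKM in Tet2-/- and 2.96 RPKM in WT, was nearest to both Tlr6 (distance 0.42) and Il1r2 (distance 0.32), and Tlr6 and Il1r2 were second to each other (distance 0.49). Next were Gm2004 for Tlr6 (distance 0.72) and 1700113H08Rik for Il1r2 (distance 0.56). Nearest to Ncf1 were the N-cadherin gene Cdh2 (distance 0.52), the diacylglycerol kinase gene Dgki (distance 0.64) and the calcium channel gene Ryr3 (distance 0.71).

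The other genes of the same pathways were taken from lists by role. The 10 lists of innate genes by role held 194 symbols, of which 38 were listed and 28 passed the filter. The 4 genes counted as lower, and of the other 24 past the filter 0 were lower and 0 higher by 2-fold or more on the log2(RPKM + 1) scale. Over all 2107 models 1.61% were lower and 2.9% higher, so a count of 0 in 24 is near the background. With a pseudocount of 0.1 in place of 1, Clec4d and Clec4n passed 2-fold and 2 of the 24 were higher. Of the 24, 21 (87.5%) lay within 1.5-fold, against 90.6% of all models, and their median log2 fold was -0.13, beside 0.01 over all models. Among the listed genes below the filter, Mrc1, Nlrp10 and Msr1 had RPKM ratios about as large as that of Ncf1 or larger. The lists were drawn up with earlier results of these data known.

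Among NLR sensors and inflammasome parts, 6 of 31 symbols were listed, and of the 3 past the filter besides Naip5 none reached 2-fold. Casp8, an apoptotic caspase that inflammasomes can also recruit, was at 45.1 RPKM in Tet2-/- and 50.7 RPKM in WT. Nek7, a kinase needed for the Nlrp3 inflammasome, was at 75.2 RPKM in Tet2-/- and 63.5 RPKM in WT. Dfna5, the gasdermin E gene, was at 11.5 RPKM in Tet2-/- and 12.1 RPKM in WT. Below the filter, Nlrp10 was at 0.0945 RPKM in Tet2-/- and 0.589 RPKM in WT, 6.24-fold lower in Tet2-/- (3.45 to 12.2), and Nlrp1b was at 0.0932 RPKM in Tet2-/- and 0.0243 RPKM in WT with an interval that includes equal levels. Nlrc4, the partner of Naip5, was not analysed here.

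Tlr6 was the one gene listed of 21 Toll-like receptor and cofactor symbols, so Tlr2, its partner, was not analysed here. Of 24 signalling genes downstream of Toll and interleukin-1 receptors, 4 were listed and 3 passed the filter, with a median log2 fold of -0.01 and none at 2-fold. Myd88, the adaptor used by both receptor families, was at 54.6 RPKM in Tet2-/- and 47.7 RPKM in WT. Peli1, a ubiquitin ligase of this pathway, was at 3.97 RPKM in Tet2-/- and 4.00 RPKM in WT. Pik3ap1, an adaptor that links Toll-like receptors to phosphoinositide 3-kinase, was at 0.949 RPKM in Tet2-/- and 1.45 RPKM in WT.

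Of 25 interleukin-1 family ligand and receptor symbols, 4 were listed. Il18bp, which encodes the soluble antagonist of interleukin-18, was the other gene past the filter, at 3.51 RPKM in Tet2-/- and 4.02 RPKM in WT with an interval that includes equal levels. Il1f9, the interleukin-36 gamma gene, was at 0.404 RPKM in Tet2-/- and 0.261 RPKM in WT, and Il1f10 was listed at 0.01, the value read as no reads, in both. Il1r1, Il1rap and Il1rl1 were not analysed here. The annotated coding sequence of Il1r2 holds 410 codons, against 576 for Il1r1.

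Of 18 NADPH oxidase subunits and regulators, 3 were listed. Ncf4, the phosphoinositide-binding subunit of the same oxidase, was at 58.8 RPKM in Tet2-/- and 88.9 RPKM in WT, 1.51-fold lower in Tet2-/- (1.44 to 1.59). The direction was that of Ncf1, and the interval of its fold did not overlap that of Ncf1. Ncf4 stood above Ncf1 in both libraries, by a wider margin in Tet2-/- than in WT. Noxo1, the organiser of a related oxidase, was at 0.853 RPKM in Tet2-/- and 1.05 RPKM in WT with an interval that includes equal levels. Cyba and Cybb were not analysed here. Of 21 oxidant-handling genes, 3 were listed and none reached 2-fold. Gclc, the catalytic subunit gene of glutathione synthesis, was at 14.5 RPKM in Tet2-/- and 21.9 RPKM in WT, Srxn1 (sulfiredoxin) at 22.8 RPKM in Tet2-/- and 26.4 RPKM in WT, and the mitochondrial superoxide dismutase gene Sod2 at 16.3 RPKM in Tet2-/- and 17.1 RPKM in WT.

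The 8 listed genes of the NF-kB pathway, the transcription route that Toll-like and interleukin-1 receptors share, all passed the filter, and none reached 2-fold. Their median log2 fold was -0.06. The kinase subunit genes Ikbkb and Ikbkg were at 31.0 and 26.7 RPKM in Tet2-/-, against 35.4 and 29.8 RPKM in WT. Bcl10, an adaptor, was at 32.7 RPKM in Tet2-/- and 28.8 RPKM in WT, Rela at 21.6 RPKM in Tet2-/- and 21.2 RPKM in WT, and Tnfaip3, a feedback inhibitor, at 21.2 RPKM in Tet2-/- and 19.4 RPKM in WT. Of the nucleic acid sensing genes, Mavs was at 11.7 RPKM in Tet2-/- and 13.1 RPKM in WT, Ddx58, the RIG-I gene, at 7.61 RPKM in Tet2-/- and 8.81 RPKM in WT, and Irf5 at 1.36 RPKM in Tet2-/- and 1.62 RPKM in WT. Nek7, Myd88, Il18bp, Noxo1, Ikbkb, Ikbkg and Irf5 overlap an annotated gene on the opposite strand, so their values may hold its reads. The same holds for the cell type markers Mitf, Slc18a2, Csf1r, Mpo and Ear2.

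All 4 listed of 11 lectin and scavenger receptor genes had a larger RPKM in Tet2-/- than in WT. None counted as higher on the log2(RPKM + 1) scale, and only Clec4d and Clec4n passed the filter. Clec4d, a receptor for fungal and mycobacterial glycolipids, was at 3.08 RPKM in Tet2-/- and 1.16 RPKM in WT, a ratio of 2.66 (1.85 to 3.91). Clec4n, the Dectin-2 gene, was at 3.17 RPKM in Tet2-/- and 1.27 RPKM in WT, a ratio of 2.50, and has no fragment estimate. With a pseudocount of 0.1 the log2 fold of Clec4d was 1.34 and that of Clec4n was 1.26. Mrc1 and Msr1, which are also macrophage markers, were at 0.775 and 0.944 RPKM in Tet2-/-, against 0.0802 and 0.200 RPKM in WT. Their ratios were 9.66 (5.46 to 18.6) for Mrc1 and 4.72 (2.17 to 11.7) for Msr1.

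**Figure D3:**
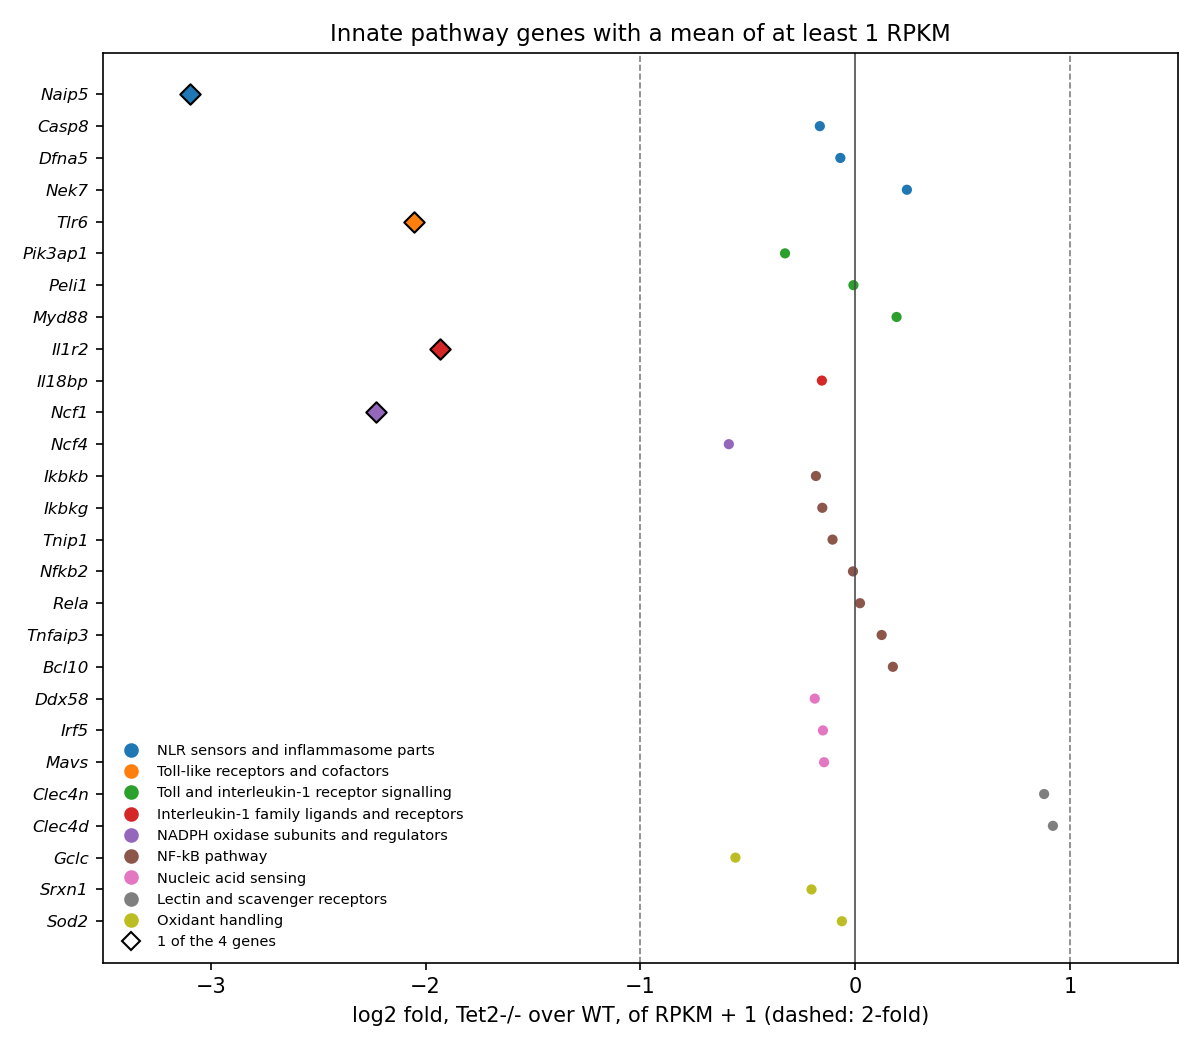
log2 fold (Tet2-/- over WT, of RPKM + 1) of 27 of the 28 innate pathway genes averaging 1 RPKM or more, coloured by list, with the 4 genes as diamonds and dashed lines at 2-fold. The 4 diamonds lie between -3.10 and -1.93, while the other 23 genes shown lie between -0.59 for Ncf4 and 0.92 for Clec4d.

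Other myeloid cells also use these sensors and this oxidase. Of 12 listed markers of such cells, 3 passed the filter, and these 3 (Ly6c2, Ly6g and Mcpt8) counted as higher in Tet2-/-, where the 4 genes were lower. Over all 2107 models 2.9% counted as higher. Ly6c2 passed the filter only through its Tet2-/- level, and Ly6g has no fragment estimate. The 6 listed of 16 macrophage and monocyte markers, of which Ly6c2 alone passed the filter, each had a larger RPKM in Tet2-/- and summed to 23.8 RPKM in Tet2-/- (0.441 to 18.8 per gene) and 1.06 RPKM in WT (0.0704 to 0.479 per gene), none being at 0.01 in either library. Ly6c2, a monocyte surface marker whose reads may be shared with its near-identical relative Ly6c1, made up most of that sum, at 18.8 RPKM in Tet2-/- and 0.479 RPKM in WT. Csf1r was at 1.32 RPKM in Tet2-/- and 0.122 RPKM in WT, a ratio of 10.9 (6.28 to 20.3). C1qb was at 1.51 RPKM in Tet2-/- and 0.105 RPKM in WT, a ratio of 14.4 (4.62 to 72.6), with about 3 fragments in WT. The 3 listed of 15 neutrophil and granulocyte precursor markers summed to 10.1 RPKM in Tet2-/- and 1.12 RPKM in WT. Nearly all of this sum was Ly6g, at 9.61 RPKM in Tet2-/- and 1.10 RPKM in WT, while Mpo was at 0.458 RPKM in Tet2-/- and 0.01 in WT and Csf3r was at 0.01 in both libraries. The 2 listed of 7 eosinophil markers summed to 2.27 RPKM in Tet2-/- and 0.829 RPKM in WT. Of these, Ear2 was at 1.45 RPKM in Tet2-/- and 0.117 RPKM in WT, on about 25 and 2 fragments. Il5ra was at 0.820 RPKM in Tet2-/- and 0.712 RPKM in WT, with an interval that includes equal levels. Mcpt8, the listed one of 4 basophil markers, was at 163 RPKM in Tet2-/- and 56.1 RPKM in WT. Which cells in the cultures held this RNA was not tested. The 3 listed lymphocyte markers summed to 1.39 RPKM in Tet2-/- and 0.846 RPKM in WT. Most of this was Ncr1, at 1.23 RPKM in Tet2-/- and 0.811 RPKM in WT, with an interval that includes equal levels. Ppbp, the listed one of the erythroid and megakaryocyte markers, was at 0.01 in both, and no dendritic cell marker was listed. The part of any of these cells in the levels of the 4 genes was not tested.

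Of the listed genes that lie within 500 kb of the 4 loci and passed the filter, 6 near Tlr6 and 3 near Ncf1, none reached 2-fold. Against the 1.61% lower and 2.9% higher over all models, a count of 0 in so few models is near the background. The 6 models near Tlr6 had log2 folds from -0.20 to 0.31. Its nearest listed neighbour, Fam114a1, 9.97 kb away, was at 3.40 RPKM in Tet2-/- and 3.66 RPKM in WT, and Tmem156, Wdr19, Lias and Rpl9 were at 2.29, 1.54, 18.3 and 1178 RPKM in Tet2-/-, against 2.78, 1.75, 16.7 and 947 RPKM in WT. The sixth was the unclassified transcript Gm42566, at 9.40 RPKM in Tet2-/- and 8.83 RPKM in WT. Within 500 kb of Ncf1, Gtf2ird2, Clip2 and Eif4h passed the filter, at 7.31, 13.5 and 147 RPKM in Tet2-/-, against 6.78, 13.7 and 138 RPKM in WT. No listed neighbour of Naip5 or Il1r2 passed the filter. Ccdc125, near Naip5, was at 0.210 RPKM in Tet2-/- and 0.197 RPKM in WT. Gm16894, an antisense RNA that overlaps Il1r2, was at 0.142 RPKM in Tet2-/- and 0.335 RPKM in WT. Of the other 5 listed near Il1r2, Gm38070 was at 0.614 RPKM in Tet2-/- and 0.356 RPKM in WT, and Gm37347, Gm3646, Gm35801 and 4930456G14Rik were at or next to 0.01 in both.

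Naip5 belongs to a cluster of near-identical genes, so its value depends on how reads shared with its relatives were assigned. Over 4212 coding bases the annotated Naip5 and Naip6 sequences differ at 128, an identity of 97.0%, and the longest run without a difference is 229 bases. Identity was 92.2% with Naip1 and 90.2% with Naip2 over aligned coding bases. The 60 coding bases that differ most, positions 41 to 100 from the start codon on chromosome 13, are shown with the 10 differing bases in capitals.
Naip5: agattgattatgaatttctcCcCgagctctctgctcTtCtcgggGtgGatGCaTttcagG
Naip6: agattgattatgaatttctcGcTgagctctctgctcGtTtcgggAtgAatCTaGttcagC

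Of the 50-base stretches of the Naip5 transcript, 36.9% also occur in an annotated GENCODE transcript of another gene on either strand, mainly Naip6, the pseudogene Naip3 and Naip1, and of its 100-base stretches 16.2% do. The remaining 63.1% and 83.8% are found in no other annotated gene. Naip1, Naip2 and Naip6 were not analysed here. Tlr6 shares 12.6% of its 50-base stretches, nearly all with Tlr1, its closest relative, whose coding sequence is 78.0% identical over aligned bases. Il1r2 shares 0 of 1370 such stretches. Ncf1 shares 6.74%, mainly with Gtf2ird2, which overlaps it on the opposite strand. Whether the library kept strand is not stated, so reads of this overlap cannot be assigned. Gtf2ird2 was 1.08 times as high in Tet2-/- as in WT, against the 5.04-fold lower level of Ncf1. Both values may hold reads of the overlap, and the part of these reads in either was not tested.

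**Figure D4:**
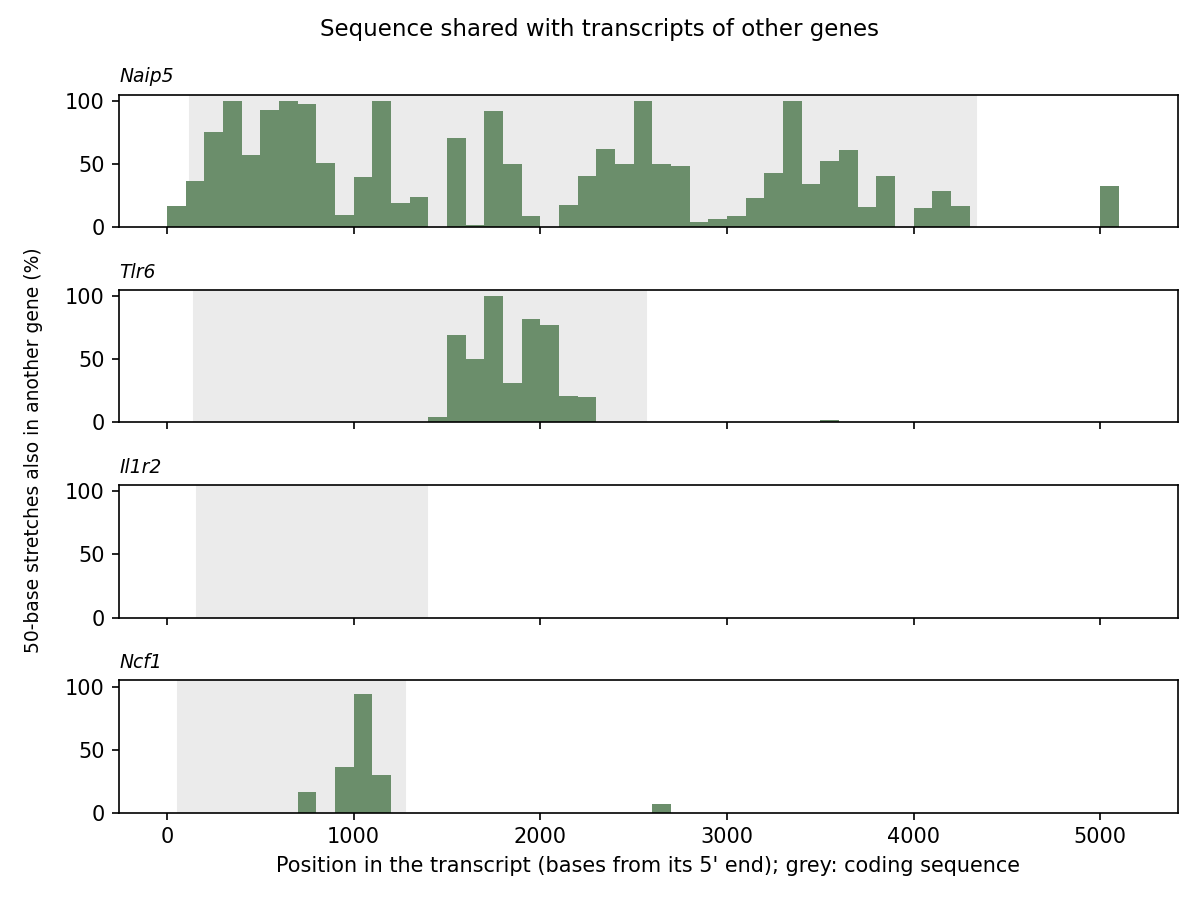
Share of 50-base stretches, in bins of 100 positions along the transcript, that also occur in a transcript of another gene, for Naip5, Tlr6, Il1r2 and Ncf1, with the coding sequence in grey. Shared stretches run through most of the Naip5 coding sequence, sit in the later part of that of Tlr6 and near the end of that of Ncf1, and are at 0 along Il1r2.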

How the data were processed

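The authors' table holds deposited RPKM values, 1 column for Tet2-/- and 1 for WT, per the file headers. Per the submitters' processing notes, reads were placed on mm10. The aligner, counter and annotation behind it: not given in the sources used here. The value 0.01 stood for 57.4% of models in Tet2-/- and 58.1% in WT and was read as no reads, although 80 and 67 models lie below it, so this reading is uncertain. Per the labels' protocols, a TruSeq RNA kit and 1 µg of total RNA were used for each library.

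Of the symbols, 7861 matched GENCODE mouse release M21 and 278 did not. The listed symbols include 17.1% of annotated protein-coding genes, and the others were not analysed here. Depth and a length offset (180 bases in Tet2-/- and 170 in WT) were set so that low values gave whole fragments. In genes with a single annotated transcript this held within 0.1 fragment for 95.6% of 248 in Tet2-/- and 95.7% of 234 in WT. A depth fixed beforehand would give 20% by chance. Depth and offset were fitted to these same values, so the share is not an independent check. Fragments used the shortest coding transcript in the basic set, if at least 400 bases long and the symbol was unique.

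The members and lists were chosen with earlier results of these data known. Named genes were the 4 and up to 6 of each innate list, by mean RPKM with at least 1 RPKM in either library. Listed neighbours within 500 kb, the 3 nearest genes in level and the genes at the edge of the calling rule were also named. This naming rule did not cover the cell type markers. The value of 1 gene that this rule takes is not reported here, although it stays in the counts. The lower-level list genes named beside them were added after their values were seen. A planned comparison of proteins was replaced by coding sequences from the GENCODE transcripts. The stretch lengths of 50 and 100 bases, the cut to upstream bases of the promoter windows and the Naip window were chosen after the files were seen. Promoters are from RefSeq, where all 4 symbols matched. The calling rule and depth step were tested on simulated data. The tools were Biopython 1.88, matplotlib 3.10.9, scipy 1.17.1, pandas 2.3.3 and numpy 2.4.6 under Python 3.11.15.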

Additional observations from a re-analysis of the deposited data

How the results depend on the processing

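Against 61 models higher and 34 lower in Tet2-/-, a pseudocount of 5 gave 33 and 14, a filter at a mean of 5 RPKM gave 40 and 16, and there were 123 and 76 at 1.5-fold, 27 and 10 at 4-fold, and 30 and 16 when only protein-coding genes whose transcript reached 500 bases were counted. A pseudocount of 0.1, no filter and median-ratio scaling stayed within 1.5 times. With a pseudocount of 0.1 the log2 folds of Naip5, Tlr6 and Il1r2 were -4.70, -3.54 and -4.37. With a pseudocount of 5 those of Naip5, Tlr6, Il1r2 and Ncf1 were -1.51, -0.82, -0.67 and -1.91. These shifts follow from the pseudocount, which weighs most on low genes. The other 11 of 18 alternative values of the 4 genes stayed within their counting intervals, and the filter at 5 RPKM left out Tlr6 and Il1r2. All 38 alternative medians of the lists and all 114 values of the other 24 pathway genes stayed within 1.5-fold of their main value, but at a pseudocount of 0.1 Clec4d (1.34) and Clec4n (1.26) crossed 2-fold, so that 2 of these genes counted as higher in place of 0. The median of the Toll and interleukin-1 receptor signalling list changed sign to 0.19 with that filter, which left Myd88 alone in it. The longest transcript in place of the shortest moved the interval of Ncf1 to 4.70 to 5.41 and no other. No paired analysis was possible because there is a single library of either genotype, which also means that leaving out a library was not an option. The Tet2-/- level of Il1r2 rests on 2 fragments, so counting error alone leaves its fold between 16.2 and 498.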

Other observations

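Il1bos, an RNA antisense to the interleukin-1 beta gene Il1b, was outside the lists and was named after its values were seen. It spans chromosome 2, 129369897 to 129375748, on the plus strand in mm10, and overlaps Il1b on the opposite strand. It was at 1.53 RPKM in Tet2-/- and 7.96 RPKM in WT, 5.20-fold lower in Tet2-/- (4.23 to 6.44), on about 110 fragments in Tet2-/- and 558 in WT. Il1b was not analysed here, and reads of both cannot be told apart where they overlap.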
